A study of Mus musculus with 78 samples.

Results

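Acan, Vcan, Hapln1 and Hapln3 were 4 of the 52459 named genes in a count table of mRNA from mouse cartilage, and they were taken by these names. Acan encodes aggrecan and Vcan encodes versican, large proteoglycans of the lectican family. Hapln1 and Hapln3 encode hyaluronan and proteoglycan link proteins. The cartilage had been engineered in culture, and the series title calls its cells chondrocytes derived from murine induced pluripotent stem cells (iPSCs). It names as the question how miRNAs and mRNAs act together when such cells meet inflammatory cytokines. Treated tissue received the cytokine IL-1beta (interleukin-1 beta) at 1 ng/mL, or the cytokine TNF-alpha (tumor necrosis factor alpha) at 20 ng/mL, each for 4, 12, 24 or 72 h, and untreated control tissue was taken at 0, 4, 12, 24 and 72 h. The labels describe all groups as the same tissue and separate them by treatment and time alone. They do not say whether the 3 libraries of a group (a, b and c) came from separate cultures, so p-values may measure only the spread between technical samples. All tissue was grown in culture from iPSCs, which limits it as a model of cartilage that formed in an animal.

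Lecticans carry chondroitin sulfate chains, which draw in water, and bind with 1 end to hyaluronan, a long sugar chain of the matrix. Link proteins bind both the lectican and the hyaluronan and hold the aggregate together. Aggrecan is the main proteoglycan of cartilage and gives it resistance to compression. Versican is a lectican of looser matrix, present in the condensing mesenchyme before cartilage forms and in tissue that is being remodelled. Hapln1 is the link protein first isolated from cartilage, while Hapln3 is the member of the family with a broad tissue distribution.

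The 38 libraries analysed held 11163263 to 68655350 counts, and control at 0 h had 2 libraries because the column of its replicate b was misaligned and was left out. Cartilage markers fitted the label: 13 of the 14 listed chondrocyte genes were in the table, each averaged at least 1 CPM (counts relative to a common library total), and their summed level was 17610 to 166300 CPM over the libraries. Of the 8 fibroblast genes all averaged at least 1 CPM, with a sum of 10340 to 38860 CPM. Endothelial genes summed to 1.11 to 2.90 CPM, skeletal muscle genes to 2.50 to 8.47 CPM, leukocyte genes to 16.5 to 70.0 CPM, neural genes to 42.8 to 121.7 CPM, adipocyte genes to 185 to 745 CPM and pluripotency genes to 0 to 0.36 CPM. The 8 libraries of IL-1beta at 4 h, control at 0 h and control at 4 h stood apart from the other 30 in some genes. Values did not overlap in 34 of the 18857 genes tested, 11 of them more than 8-fold. None of the 4 members was among these, but with so few genes in all this does not show that the division leaves the members unchanged. The 8 are all libraries analysed of 0 and 4 h except TNF-alpha at 4 h, so the division is itself made of treatment and time groups. TNF-alpha at 4 h lay on the other side of this division from its controls and from IL-1beta at 4 h, so at 4 h the division and the effect of TNF-alpha cannot be told apart.

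In the RefSeq annotation of GRCm38.p6, the build that mm10 names, the 4 genes lie as 2 convergent pairs of a lectican with a link protein. Acan spans chr7:79053226-79115099 on the plus strand, and Hapln3 spans chr7:79117027-79133173 on the minus strand, with 1927 bases between their ends. Hapln1 spans chr13:89540529-89611832 on the plus strand, and Vcan spans chr13:89655309-89743027 on the minus strand, with 43476 bases between them. The long noncoding RNA Gm26633 overlaps the start of Acan on the opposite strand, the long noncoding RNA Gm4117 and the pseudogene Gm16318 overlap Vcan, and the pseudogene Gm8546 lies inside Hapln1. The sources used here do not give the strand setting of the counting, so reads of a member and of a gene that overlaps it cannot be told apart.

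**Figure D1:**
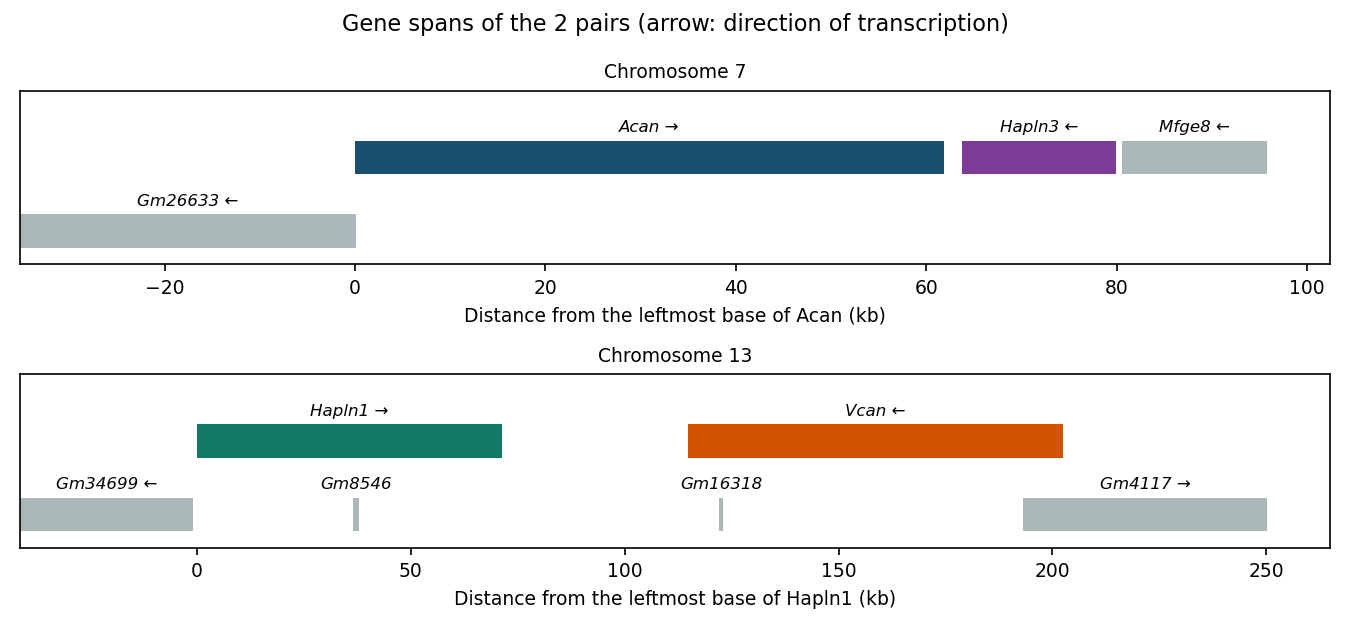
Spans of the 2 pairs of genes, drawn to scale in kb from the leftmost base of Acan (top, chromosome 7) and of Hapln1 (bottom, chromosome 13), with members in colour, other annotated genes in grey and arrows for the direction of transcription. The 3′ ends of each pair face each other, with a gap of 1927 bases between Acan and Hapln3 and of 43476 bases between Hapln1 and Vcan.

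The proximal promoters are printed because Hapln1 and Vcan, side by side on chromosome 13, moved in opposite directions after 72 h of IL-1beta, while Acan and Hapln1, on different chromosomes, both fell. Each holds 250 bases before and 50 bases after 1 annotated transcript start, 5′ to 3′ in the direction of transcription, from chr7:79052976-79053275 (plus strand, Acan), chr13:89742463-89742762 (minus strand, Vcan), chr13:89540386-89540685 (plus strand, Hapln1) and chr7:79130969-79131268 (minus strand, Hapln3) of GRCm38.p6. For Acan this start is the first base of the gene span given above, while for Vcan, Hapln1 and Hapln3, which have 7, 2 and 3 RefSeq transcripts, it lies 515, 107 and 2155 bases inside the span, so other starts of these genes are not shown. Capitals mark matches to the motifs searched on both strands.
Acan: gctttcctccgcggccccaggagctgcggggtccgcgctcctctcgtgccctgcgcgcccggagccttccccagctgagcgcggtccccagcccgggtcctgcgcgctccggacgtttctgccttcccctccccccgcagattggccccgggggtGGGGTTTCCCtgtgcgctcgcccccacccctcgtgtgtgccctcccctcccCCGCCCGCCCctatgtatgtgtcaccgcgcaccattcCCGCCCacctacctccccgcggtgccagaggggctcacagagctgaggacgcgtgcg
Vcan: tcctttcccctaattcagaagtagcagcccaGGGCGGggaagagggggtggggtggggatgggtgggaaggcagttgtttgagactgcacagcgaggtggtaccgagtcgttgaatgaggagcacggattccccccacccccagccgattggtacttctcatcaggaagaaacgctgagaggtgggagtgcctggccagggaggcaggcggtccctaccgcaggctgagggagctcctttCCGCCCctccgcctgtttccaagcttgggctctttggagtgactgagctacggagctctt
Hapln1: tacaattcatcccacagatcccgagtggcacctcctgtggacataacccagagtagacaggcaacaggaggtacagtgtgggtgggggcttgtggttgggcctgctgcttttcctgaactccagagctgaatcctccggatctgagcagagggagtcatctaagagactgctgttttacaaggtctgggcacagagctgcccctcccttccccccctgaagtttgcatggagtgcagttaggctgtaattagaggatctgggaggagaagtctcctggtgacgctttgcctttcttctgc
Hapln3: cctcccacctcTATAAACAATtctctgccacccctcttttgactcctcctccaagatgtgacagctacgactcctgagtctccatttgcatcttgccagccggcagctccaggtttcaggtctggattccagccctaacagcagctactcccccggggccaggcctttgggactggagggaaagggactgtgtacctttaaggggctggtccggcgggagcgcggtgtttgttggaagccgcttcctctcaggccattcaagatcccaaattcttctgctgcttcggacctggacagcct

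The motifs were the SOX core AACAAT, the TATA box TATAAA, the GC box GGGCGG, the AP-1 site TGANTCA and the NF-kappaB site. Over all 32851 promoters of this length they were found in 10.7%, 13.6%, 35.7%, 7.81% and 8.46%. The Acan promoter held 3 GC boxes, at -44, -40 and -7 from that start, of which the first 2 overlap, and an NF-kappaB site at -95 that reads on both strands. Vcan held GC boxes at -219 and -10. Hapln3 held a TATAAA at -239 that overlaps an AACAAT at -235, and none of these motifs was found in the Hapln1 window. The Acan window was the richest of the 4 in G and C, with 74.0% and 31 CpG pairs, against 61.0% and 12 for Vcan, 57.0% and 9 for Hapln3, 54.3% and 3 for Hapln1, and medians of 52.7% and 7 over all promoters.

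Levels are given as CPM on scaled library totals (TMM, a scaling that assumes most genes keep their level), and per kb of the gene length in the table where genes are compared. Per length, Acan was the most abundant of the 4 in every group, with group means of 122 CPM per kb after 72 h of IL-1beta to 1389 CPM per kb after 4 h of TNF-alpha. Hapln1 had group means of 68.9 to 268 CPM per kb and Vcan 25.3 to 124 CPM per kb. Hapln3 was the lowest, with 0.744 to 2.62 CPM per kb and 50 to 360 counts in a library. Hapln3 counts were 0.047 to 0.373% of the Acan counts of the same library. Hapln3 was measured less precisely than the others, with the largest standard error of the 4 genes in every log2 difference tested. Each of the others had at least 5875 counts in every library.

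**Figure D2:**
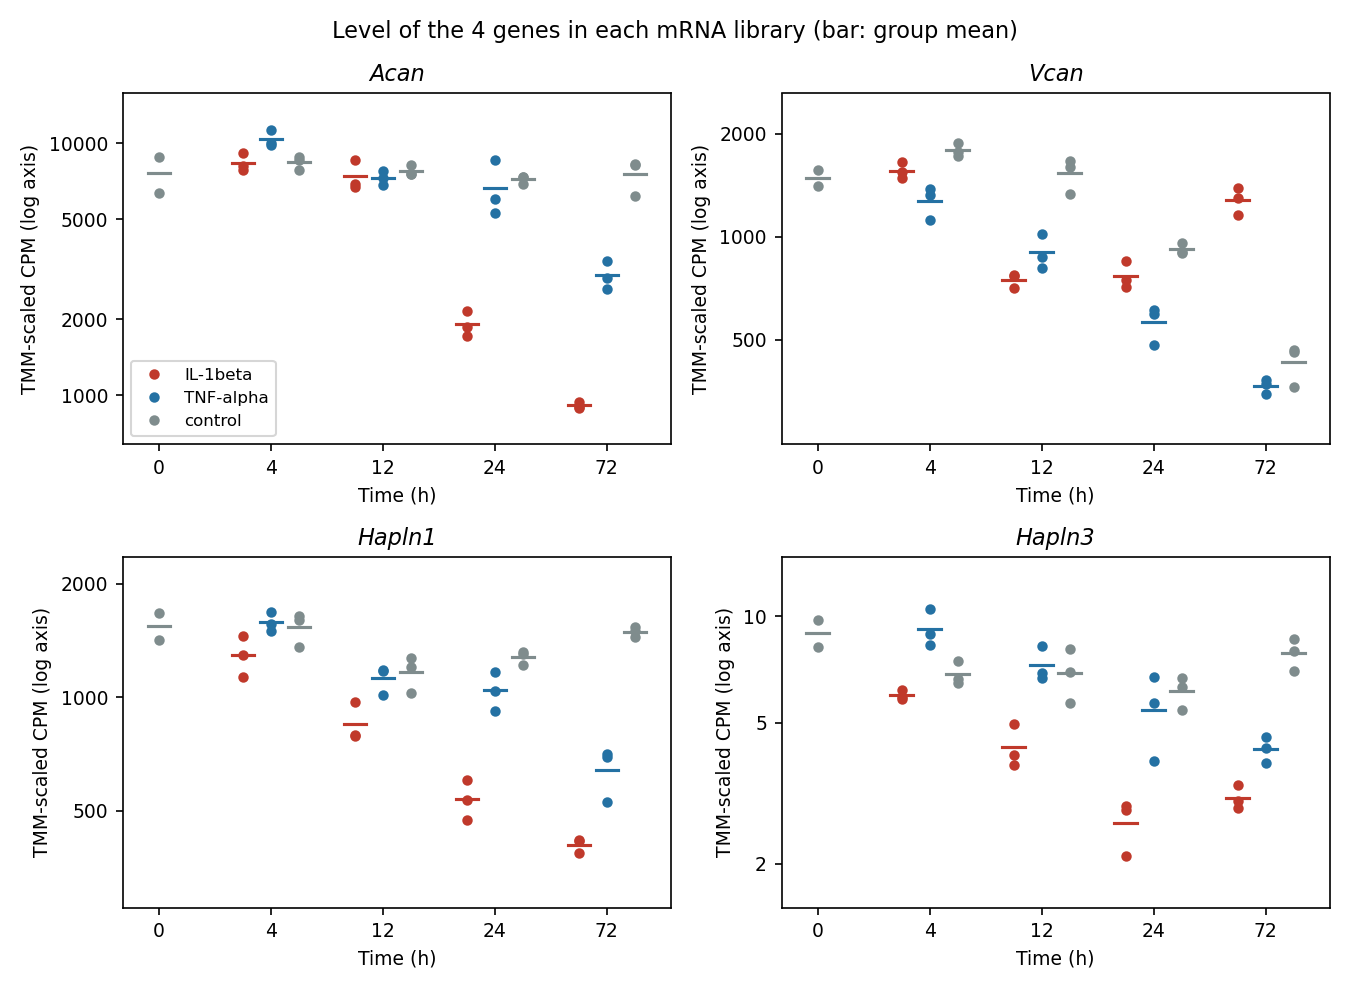
TMM-scaled CPM (log axes, a range of its own for each gene) of Acan, Vcan, Hapln1 and Hapln3 in each of the 38 libraries by time (h), with IL-1beta in red left, TNF-alpha in blue in the middle and control in grey right at each time, and a bar at the group mean. Acan and Hapln3 lie lowest in the IL-1beta libraries of 24 and 72 h, and Hapln1 in those of 72 h, while Vcan after 72 h of IL-1beta stands at 1157 to 1386 CPM, above the 364 to 465 CPM of its controls.

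In untreated cartilage Vcan fell with time, while no difference in Acan was called. Vcan averaged 1486 ± 112 CPM in control at 0 h (SD, n = 2), 1792 ± 75.9 CPM at 4 h, 1534 ± 179.9 CPM at 12 h, 918 ± 33.5 CPM at 24 h and 429 ± 57.1 CPM at 72 h (SD, n = 3 each). The 72 h controls (465, 459 and 364 CPM) lay below all earlier controls. Between 72 and 12 h Vcan fell by 1.84 ± 0.104 on the log2 scale (value ± standard error, edgeR adjusted p = 4.94e-15), and between 24 and 12 h it fell by 0.74 ± 0.101 (edgeR adjusted p = 3.04e-06). Set against 0 h, Vcan at 72 h fell by 1.79 ± 0.111 (edgeR adjusted p = 9.32e-15). The 0 h and 72 h controls lie on opposite sides of the division, so there time and the division cannot be told apart. Acan averaged 7591 ± 1777 CPM in control at 0 h (SD, n = 2), 8411 ± 540.3 CPM at 4 h, 7761 ± 375 CPM at 12 h, 7202 ± 266 CPM at 24 h and 7527 ± 1189 CPM at 72 h (SD, n = 3 each). None of its 4 control comparisons passed the threshold of an adjusted p of 0.05, and the difference between 72 and 12 h was -0.04 ± 0.133 on the log2 scale, with a 95% interval of -0.31 to 0.22. Hapln1 stood at 1445, 1540.2 and 1497 CPM in the 72 h controls, against 1272, 1206 and 1026 CPM in the 12 h controls. It rose by 0.35 ± 0.110 between those times (edgeR adjusted p = 0.0108), but without replicate c of control at 12 h the difference was 0.29 and lost its call (adjusted p = 0.0714). For Hapln3 no control comparison passed, with group means of 6.13 to 8.96 CPM. Among all genes tested, 21.7% were called between 24 and 12 h, 37.1% between 72 and 12 h, 37.6% between 72 and 0 h and 20.4% between 4 and 0 h, where no member was called.

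With IL-1beta aggrecan and both link proteins fell, and versican fell at 12 h and rose at 72 h. After 4 h none of the 4 genes was called, while 32.7% of all genes tested were (15.5% rose and 17.2% fell). After 12 h Vcan, Hapln1 and Hapln3 fell and Acan was not called (29.6% of all genes were called, 14.5% up and 15% down). All 4 fell after 24 h (32.6% of all genes were called, 17% up and 15.6% down). After 72 h Acan, Hapln1 and Hapln3 fell and Vcan rose (38.9% of all genes were called, 19.3% up and 19.7% down). In bulk tissue, fewer cells of a type and less RNA per cell cannot be told apart.

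Aggrecan, the main load-bearing proteoglycan, was not called after 4 or 12 h of IL-1beta and fell after 24 and 72 h. Its level after 4 h was 9149, 8141 and 7858 CPM with IL-1beta, against 8572, 8852 and 7808 CPM in control, a log2 difference of -0.0048 ± 0.133 (edgeR adjusted p = 0.983). After 12 h it was 6893, 6716 and 8562 CPM with IL-1beta, against 7515, 7575 and 8192 CPM in control (-0.07 ± 0.133, edgeR adjusted p = 0.749, 95% interval -0.33 to 0.19). The groups overlapped at both times. After 24 h Acan was 1868, 1714 and 2148 CPM with IL-1beta, against 7356, 7354 and 6895 CPM in control, and fell by 1.91 ± 0.138 on the log2 scale (edgeR adjusted p = 1.44e-13). At 72 h it was 940.0, 892 and 898 CPM with IL-1beta, against 6155, 8161 and 8265 CPM in control, and fell by 3.05 ± 0.144 (edgeR adjusted p = 1.03e-18), so that the control mean was 8.27 times the mean with IL-1beta. Every IL-1beta library of 24 and 72 h lay below every control library. Acan made up 0.0933 to 0.0957% of all counts after 72 h of IL-1beta, against 0.651 to 0.844% in the 72 h controls.

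Versican, the lectican of mesenchyme and remodelling tissue, moved early and changed direction. After 4 h it was 1481, 1650.2 and 1543 CPM with IL-1beta, against 1875, 1725 and 1775 CPM in control, groups that did not overlap but whose difference of -0.20 ± 0.10 was not called (edgeR adjusted p = 0.125). After 12 h Vcan was 709, 772 and 766 CPM with IL-1beta, against 1671, 1602 and 1330.5 CPM in control, and fell by 1.03 ± 0.102 (edgeR adjusted p = 3.6e-10). No IL-1beta library of 12 h reached a control library of that time. At 24 h it was 849, 746 and 712 CPM with IL-1beta, against 901, 897 and 957 CPM in control, a fall of 0.26 ± 0.101 (edgeR adjusted p = 0.0481) that was lost without any 1 of 5 of the 6 libraries, all but IL-1beta replicate a, with values of -0.27 (control a), -0.27 (control b), -0.23 (control c), -0.24 (IL-1beta b) and -0.20 (IL-1beta c). After 72 h Vcan was 1296, 1157 and 1386 CPM with IL-1beta, against 465, 459 and 364 CPM in control, and rose by 1.57 ± 0.103 (edgeR adjusted p = 4.92e-15), a mean 2.98 times that of control. Every IL-1beta library of 72 h lay above every control library of 24 and 72 h. Both the higher level with IL-1beta and the lower level of the 72 h controls enter this difference: the mean with IL-1beta was 1279.7 ± 115 CPM at 72 h and 749 ± 34.7 CPM at 12 h, while the control mean was 429 ± 57.1 CPM at 72 h and 1534 ± 179.9 CPM at 12 h (SD, n = 3 each).

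Both link proteins fell after 12, 24 and 72 h of IL-1beta. Hapln1, whose product ties aggrecan to hyaluronan, was 1129.7, 1295 and 1457 CPM after 4 h of IL-1beta, against 1643, 1607 and 1357 CPM in control. Those groups overlapped, and the difference of -0.25 ± 0.110 was not called (edgeR adjusted p = 0.0838), though it passed without control 4 h replicate c (-0.32, adjusted p = 0.0466) or without IL-1beta 4 h replicate c (-0.34, adjusted p = 0.0348). After 12 h Hapln1 was 788, 794 and 974 CPM with IL-1beta, against 1272, 1206 and 1026 CPM in control, and fell by 0.46 ± 0.111 (edgeR adjusted p = 0.00153). It fell by 1.25 ± 0.112 after 24 h (edgeR adjusted p = 2.72e-11), with 473, 533 and 602 CPM under IL-1beta, against 1301, 1219 and 1315 CPM in control. At 72 h it was 415, 417 and 387 CPM with IL-1beta, against 1445, 1540.2 and 1497 CPM in control, and fell by 1.88 ± 0.114 (edgeR adjusted p = 6.88e-16). From 12 h on the Hapln1 groups did not overlap. Hapln3, the link protein of low level here, was 5.85, 5.89 and 6.19 CPM after 4 h of IL-1beta, against 6.46, 7.47 and 6.65 CPM in control, a difference that was not called (-0.20 ± 0.146, edgeR adjusted p = 0.32). It fell by 0.71 ± 0.171 after 12 h (edgeR adjusted p = 0.00138), with 4.96, 3.81 and 4.06 CPM under IL-1beta, against 8.08, 5.67 and 6.95 CPM in control. After 24 h it was 2.10, 2.83 and 2.90 CPM with IL-1beta, against 6.29, 5.42 and 6.68 CPM in control (-1.23 ± 0.166, edgeR adjusted p = 2.55e-07). The groups were apart at each of these times. At 72 h it was 3.01, 3.33 and 2.87 CPM with IL-1beta, against 6.99, 8.61 and 7.99 CPM in control (-1.35 ± 0.165, edgeR adjusted p = 1.96e-08).

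With TNF-alpha versican fell after 4, 12 and 24 h, and aggrecan and both link proteins fell after 72 h. Vcan fell after 4 h, by 0.49 ± 0.101 (edgeR adjusted p = 0.000429), with 1123, 1378 and 1327 CPM under TNF-alpha, against 1875, 1725 and 1775 CPM in control. The 12 h controls lie on the same side of the division as TNF-alpha at 4 h, but they differ in time as well. A comparison with them thus cannot separate TNF-alpha from time. Against these controls Vcan differed by -0.27 and was called (edgeR adjusted p = 0.0476). It fell by 0.77 ± 0.101 after 12 h (edgeR adjusted p = 2.37e-07), with 1019.7, 813 and 873 CPM under TNF-alpha, against 1671, 1602 and 1330.5 CPM in control, and by 0.71 ± 0.101 after 24 h (edgeR adjusted p = 1.19e-06), with 595, 482 and 611 CPM under TNF-alpha, against 901, 897 and 957 CPM in control. No TNF-alpha library reached a control library at those 3 times. At 72 h Vcan was 371, 346 and 380.0 CPM with TNF-alpha, against 465, 459 and 364 CPM in control, groups that overlapped and whose difference of -0.23 ± 0.101 was not called (edgeR adjusted p = 0.0704). Without replicate c of the 72 h controls it was -0.36 and called (adjusted p = 0.00802). Of all genes tested, 21.5% were called after 4 h of TNF-alpha (10.9% up and 10.6% down), 28.4% after 12 h (14.6% up and 13.8% down), 25% after 24 h (13.2% up and 11.9% down) and 36% after 72 h (17.8% up and 18.3% down).

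Aggrecan was not called after 4, 12 or 24 h of TNF-alpha and fell after 72 h. It was 11256, 9846 and 10029 CPM after 4 h with TNF-alpha, against 8572, 8852 and 7808 CPM in control, groups that did not overlap but whose difference of 0.30 ± 0.133 was not called (edgeR adjusted p = 0.103). Against the 12 h controls, a comparison of unlike times, the difference was 0.42 and was called (edgeR adjusted p = 0.0179). A fit on only TNF-alpha and control at 4 h called the difference as well (0.33, edgeR adjusted p = 0.00768). Those 2 groups lie on opposite sides of the division. The log2 difference was -0.09 ± 0.133 after 12 h (edgeR adjusted p = 0.662) and -0.12 ± 0.133 after 24 h (edgeR adjusted p = 0.559), where TNF-alpha libraries of 5286, 8597 and 5984 CPM spread on both sides of controls at 7356, 7354 and 6895 CPM. Without TNF-alpha 24 h replicate b, the high library, the 24 h difference was -0.35 and was called (adjusted p = 0.0435). After 72 h Acan was 2920.0, 3394 and 2645 CPM with TNF-alpha, against 6155, 8161 and 8265 CPM in control, and fell by 1.33 ± 0.136 (edgeR adjusted p = 6.29e-10). The 3 TNF-alpha libraries lay below all controls.

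Hapln1 differed from control by 0.04 ± 0.110 after 4 h of TNF-alpha (edgeR adjusted p = 0.825) and by -0.06 ± 0.110 after 12 h (edgeR adjusted p = 0.753), with overlapping groups. Against the 12 h controls the 4 h TNF-alpha libraries were higher by 0.44 (edgeR adjusted p = 0.00278), a comparison of unlike times. In control itself, Hapln1 averaged 1535 CPM at 4 h and 1168 CPM at 12 h. At 24 h it was 922, 1169.8 and 1037 CPM with TNF-alpha, against 1301, 1219 and 1315 CPM in control, a fall of 0.29 ± 0.110 that passed narrowly (edgeR adjusted p = 0.048) and was lost without any 1 of 5 of the 6 libraries, all but TNF-alpha replicate b, with -0.28 (control a), -0.33 (control b), -0.28 (control c), -0.21 (TNF-alpha a) and -0.29 (TNF-alpha c). After 72 h Hapln1 was 707, 694 and 528 CPM with TNF-alpha, against 1445, 1540.2 and 1497 CPM in control, and fell by 1.22 ± 0.112 (edgeR adjusted p = 5.97e-11). Hapln3 rose after 4 h of TNF-alpha by 0.43 ± 0.148 (edgeR adjusted p = 0.0331), with 10.5, 8.26 and 8.89 CPM, against 6.46, 7.47 and 6.65 CPM in control. That call was lost without control a (0.39), control c (0.41), TNF-alpha a (0.33) or TNF-alpha c (0.45). It also crosses the division of the libraries. Against the 12 h controls the difference was 0.41 and called (edgeR adjusted p = 0.0464), but this comparison cannot separate TNF-alpha from time. Hapln3 was not called after 12 h (0.06 ± 0.155, edgeR adjusted p = 0.807) or 24 h (-0.16 ± 0.153, edgeR adjusted p = 0.497). It fell by 0.91 ± 0.154 after 72 h (edgeR adjusted p = 1.09e-05), with 4.23, 3.84 and 4.54 CPM under TNF-alpha, against 6.99, 8.61 and 7.99 CPM in control.

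**Figure D3:**
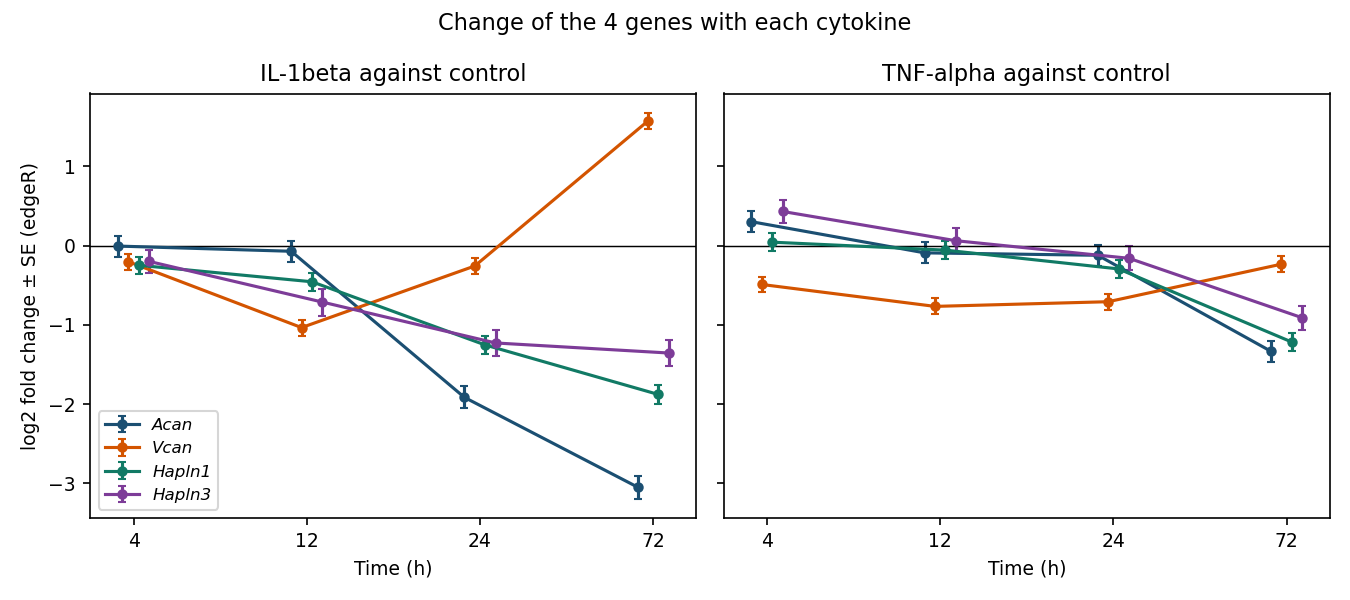
Log2 fold change from edgeR against the control of the same time (points, with bars of 1 standard error derived from the F test, 3 libraries in each group) of the 4 genes after 4, 12, 24 and 72 h of IL-1beta (left) and TNF-alpha (right). With IL-1beta, Vcan lies at -1.03 at 12 h and at 1.57 at 72 h, and Acan lies at -3.05 at 72 h; with TNF-alpha, Acan, Hapln1 and Hapln3 lie at -0.91 to -1.33 at 72 h and Vcan at -0.23.

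After 72 h versican and aggrecan had the widest differences between the cytokines of the 4 genes, although their doses differ in mass and a difference may reflect dose. After 72 h Acan was lower with IL-1beta than with TNF-alpha by a log2 difference of -1.71 ± 0.137 (edgeR adjusted p = 1.15e-12), and at 24 h by -1.79 ± 0.137 (edgeR adjusted p = 1.22e-12). Vcan was higher with IL-1beta by 0.45 ± 0.101 after 24 h (edgeR adjusted p = 0.000825) and by 1.81 ± 0.104 after 72 h (edgeR adjusted p = 1.86e-16), a mean 3.50 times that with TNF-alpha. These groups did not overlap. Hapln1 was lower with IL-1beta by -0.40 ± 0.111 after 12 h (edgeR adjusted p = 0.0143), by -0.96 ± 0.111 after 24 h (edgeR adjusted p = 1.74e-08) and by -0.66 ± 0.111 after 72 h (edgeR adjusted p = 7.75e-06). The 12 h call on Hapln1 was lost without TNF-alpha a (-0.37), TNF-alpha c (-0.36), IL-1beta a (-0.36) or IL-1beta b (-0.35). Hapln3 was lower with IL-1beta at all 4 times, by -0.63 ± 0.154 after 4 h (edgeR adjusted p = 0.00464), -0.77 ± 0.171 after 12 h (edgeR adjusted p = 0.00198), -1.07 ± 0.163 after 24 h (edgeR adjusted p = 3.27e-06) and -0.45 ± 0.170 after 72 h (edgeR adjusted p = 0.0354). The IL-1beta and TNF-alpha libraries of 4 h lie on opposite sides of the division, so there cytokine and division cannot be told apart. The 4 h call on Hapln3 was lost without TNF-alpha a (-0.51). Its 72 h call was lost without TNF-alpha a (-0.44), TNF-alpha c (-0.39), IL-1beta a (-0.43) or IL-1beta c (-0.39). At 4 h Acan (-0.31 ± 0.134, edgeR adjusted p = 0.138), Vcan (0.29 ± 0.101, edgeR adjusted p = 0.0552) and Hapln1 (-0.29 ± 0.110, edgeR adjusted p = 0.0812) were not called. Vcan passed there without TNF-alpha b (0.36) or IL-1beta a (0.35), and Hapln1 without IL-1beta c (-0.38). At 12 h neither Acan (0.02 ± 0.133, edgeR adjusted p = 0.955) nor Vcan (-0.27 ± 0.101, edgeR adjusted p = 0.088) was called, and Vcan passed without TNF-alpha b (-0.35). Between the cytokines 12.4%, 10.6%, 20.1% and 39.8% of all genes tested were called at 4, 12, 24 and 72 h.

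The effect of each cytokine differed between times for all 4 genes, by the interaction of cytokine and time over the 4 times. For IL-1beta the adjusted p was 2.01e-15 for Acan, 2.82e-15 for Vcan, 2.59e-10 for Hapln1 and 0.000161 for Hapln3 by edgeR, while 38.7% of all genes tested passed. For TNF-alpha it was 2.69e-07 for Acan, 0.0199 for Vcan, 3.78e-07 for Hapln1 and 0.000119 for Hapln3 by edgeR, while 19.2% passed. Over 12, 24 and 72 h only, a set chosen after the values were seen that leaves out the time at which the libraries divide, 7 of these 8 calls held and Hapln3 with IL-1beta did not (edgeR adjusted p = 0.0891). Between 72 and 12 h alone, the effect of IL-1beta differed for all 4 genes (28.2% of all genes were called), and so did that of TNF-alpha (8.54% were called). The Vcan interaction with TNF-alpha lost its call without control 12 h a (adjusted p = 0.0564), control 12 h b (0.0536), control 72 h c (0.11) or TNF-alpha 72 h c (0.0511).

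Group means ran in this order, with neighbours called apart only where all libraries of 1 group lay above all of the next. Acan was highest in TNF-alpha at 4 h (10377 ± 767 CPM), apart from the next group. The 9 groups that followed, from control at 4 h (8411 CPM) to TNF-alpha at 24 h (6622 CPM), overlapped from each one to the next. TNF-alpha at 72 h (2986 ± 379 CPM), IL-1beta at 24 h (1910.1 ± 219.6 CPM) and IL-1beta at 72 h (910.2 ± 26.0 CPM) came last and were each apart. For Vcan the order was control at 4 h, IL-1beta at 4 h, control at 12 h, control at 0 h, IL-1beta at 72 h, TNF-alpha at 4 h, control at 24 h, TNF-alpha at 12 h, IL-1beta at 24 h, IL-1beta at 12 h, TNF-alpha at 24 h, control at 72 h and TNF-alpha at 72 h (366 ± 17.6 CPM). Of its 12 neighbouring pairs 5 were apart: the first pair, control at 0 h from IL-1beta at 72 h, TNF-alpha at 4 h from control at 24 h, IL-1beta at 12 h from TNF-alpha at 24 h, and TNF-alpha at 24 h from control at 72 h. IL-1beta at 72 h thus stood next to the early controls in Vcan and last in Acan. Hapln1 was highest in TNF-alpha at 4 h (1584 ± 91.4 CPM) and lowest in IL-1beta at 72 h (406 ± 16.8 CPM), with 2 of 12 neighbouring pairs apart (IL-1beta at 12 h from TNF-alpha at 72 h, and IL-1beta at 24 h from IL-1beta at 72 h). Hapln3 was highest in TNF-alpha at 4 h (9.21 ± 1.14 CPM) and lowest in IL-1beta at 24 h (2.61 ± 0.444 CPM), and only TNF-alpha at 72 h (4.2 ± 0.351 CPM) and IL-1beta at 72 h (3.07 ± 0.234 CPM) were neighbours that did not overlap.

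The balance of the 2 lecticans shifted with both cytokines, and furthest after 72 h of IL-1beta. Per length, Vcan made up 41.6, 40.1 and 44.3% of the sum of Acan and Vcan after 72 h of IL-1beta, 6.15, 5.0 and 6.91% after 72 h of TNF-alpha, and 3.76, 2.82 and 2.22% in the 72 h controls. After 24 h it made up 19.0, 18.4 and 14.6% with IL-1beta, 5.50, 2.81 and 5.01% with TNF-alpha, and 5.95, 5.93 and 6.69% in control. The share thus lay above all controls after 72 h of either cytokine. After 12 h it lay below all controls with either cytokine. It was then 5.05, 5.60 and 4.42% with IL-1beta, 6.76, 5.125 and 6.20% with TNF-alpha, and 10.3, 9.84 and 7.74% in control. In the controls the mean share was 9.33% at 0 h, 9.94% at 4 h, 9.29% at 12 h, 6.19% at 24 h and 2.94% at 72 h.

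The balance of aggrecan and its link protein moved both ways. Per length, Acan stood at 6.91, 6.68 and 6.95 times Hapln1 after 12 h of IL-1beta, against 4.67, 4.96 and 6.31 times in control. After 24 h it stood at 3.12, 2.54 and 2.82 times with IL-1beta, against 4.47, 4.76 and 4.14 times in control, and after 72 h at 1.79, 1.69 and 1.83 times with IL-1beta, against 3.37, 4.19 and 4.36 times in control. The IL-1beta libraries were thus above all controls at 12 h and below them at 24 and 72 h. With TNF-alpha at 72 h the ratio was 3.26, 3.87 and 3.96, which overlapped that of the controls. Against both lecticans together, Hapln1 per length was 32.8 ± 2.56% after 72 h of IL-1beta, 25.6 ± 2.77% after 72 h of TNF-alpha and 24.7 ± 3.37% in control (SD, n = 3 each). These ratios are descriptions without a test.

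**Figure D4:**
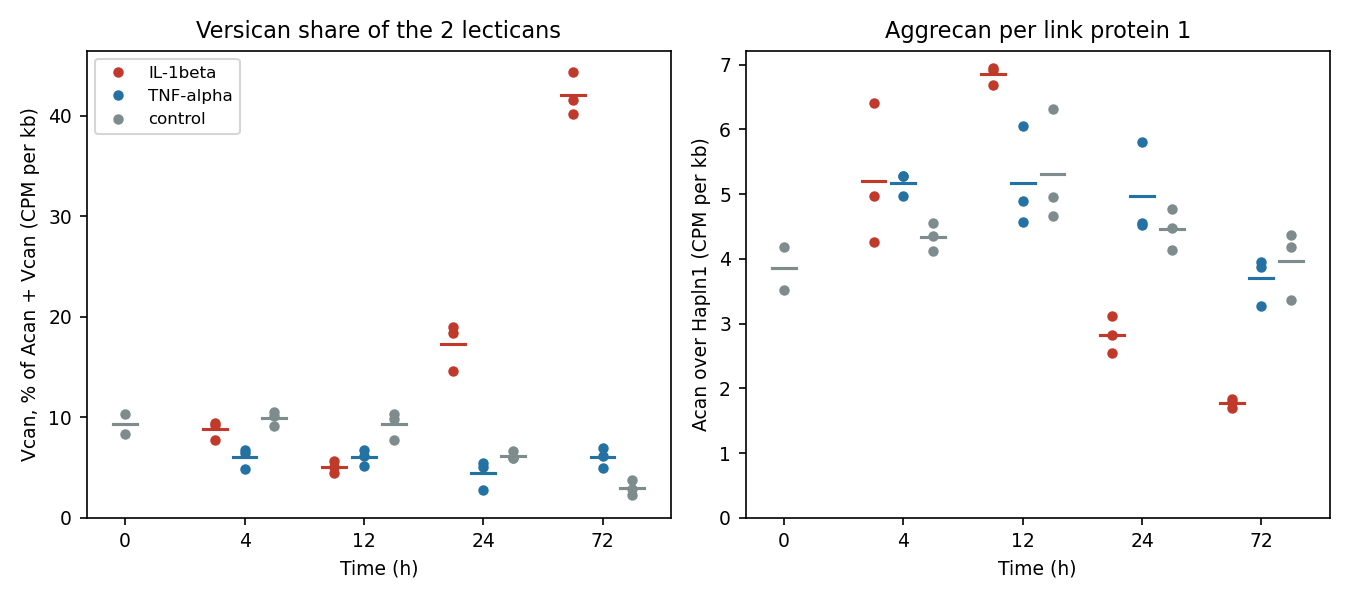
Left, Vcan as a percentage of Acan plus Vcan, and right, Acan over Hapln1, both from CPM per kb, in each library by time (h), with IL-1beta in red left, TNF-alpha in blue in the middle and control in grey right at each time, and a bar at the group mean. After 72 h of IL-1beta the versican share is 40.1 to 44.3% and Acan over Hapln1 is 1.69 to 1.83, both outside the range of all other groups.

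Across the means of the 13 groups, log2 CPM of Hapln1 correlated with that of Hapln3 at 0.94 and with that of Acan at 0.93 (Pearson r), and Acan with Hapln3 at 0.84. Vcan correlated with the others at 0.19 to 0.29. These values are descriptions over groups that share treatments and controls. Among 12618 tested genes with a mean of at least 1 CPM, the profiles most like Acan were those of Galnt18 (r = 0.98), which encodes a protein of the O-glycosylation enzyme family, Tmem56 (0.97) and Col11a1 (0.97), a chain of the cartilage fibril collagens. Those most like Vcan were Sh3pxd2a (0.94), an adaptor of invasive cell protrusions, Pcsk7 (0.93), a proprotein convertase, and Il6ra (0.93), the receptor chain for interleukin-6. Among those most like Hapln1 were Ltbp1 (0.96), which holds latent TGF-beta in the matrix, and C1qtnf3 (0.96). For Hapln3 they were Synpo (0.96), an actin-binding protein, the imprinted noncoding RNA H19 (0.94) and Fgfr3 (0.94), a growth factor receptor of growth plate cartilage.

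Of the genes that overlap a member, Gm26633, antisense at the start of Acan, moved as Acan did, with a fall of 2.54 after 72 h of IL-1beta and of 1.33 after 72 h of TNF-alpha on the log2 scale, at 13.9 ± 1.00 CPM with IL-1beta, 32.2 ± 7.9 CPM with TNF-alpha and 81.5 ± 13 CPM in control (SD, n = 3 each). Gm16318 and Gm4117, which overlap Vcan, rose after 72 h of IL-1beta by 1.27 and 0.60, and Gm8546 inside Hapln1 fell by 1.33. Whether these counts are reads of the members was not tested. Mfge8, 594 bases beyond Hapln3, encodes a secreted bridge for dying cells and fell by 0.88 after 72 h of IL-1beta and was not called with TNF-alpha (-0.09). Xrcc4, a DNA repair gene 105886 bases beyond Vcan, differed by -0.04 after 72 h of IL-1beta and was not called.

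The rest of the lectican and link protein families was near the limit of detection. Bcan and Ncan, the brain lecticans, had group means of at most 0.906 and 1.07 CPM, and neither was called in any comparison with control. Hapln4 had group means of 0.837 to 2.04 CPM and rose after 72 h of IL-1beta by 0.99 ± 0.296 (edgeR adjusted p = 0.00726), a call that was lost without control 72 h b (0.72) or IL-1beta 72 h a (0.75). Hapln2 did not pass the filter. Of these 3 genes tested no other call was made against control. In untreated cartilage Hapln4 fell by 1.24 ± 0.293 (edgeR adjusted p = 0.00101) and Bcan by 1.37 ± 0.468 (edgeR adjusted p = 0.0205) between 72 and 12 h, where 37.1% of all genes were called. Both fell between 72 and 0 h as well, a comparison that crosses the division of the libraries. Ncan rose by 1.75 ± 0.551 between 4 and 0 h (edgeR adjusted p = 0.0209).

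Most genes for making chondroitin sulfate chains were lower than in control after 72 h of either cytokine. Many fell in untreated cartilage too, where 14 of 25 tested fell and 3 rose between 72 and 12 h. Their median log2 fold change there was -0.28, against 0.0011 over all genes, of which 37.1% were called. The counts that follow are against control of the same time. Of 25 tested, 7 fell and 2 rose after 4 h of IL-1beta, 13 and 0 after 12 h, 13 and 2 after 24 h, and 18 and 3 after 72 h, with a median log2 fold change of -0.47 at 72 h, against 0.0034 over all genes. Of all genes tested 17.2%, 15%, 15.6% and 19.7% fell and 15.5%, 14.5%, 17% and 19.3% rose at these 4 times of IL-1beta. With TNF-alpha 6 fell and 2 rose after 4 h, 12 and 2 after 12 h, 9 and 2 after 24 h, and 18 and 2 after 72 h, with a median of -0.34 at 72 h, against -0.008 over all genes. Here 10.6%, 13.8%, 11.9% and 18.3% of all genes fell and 10.9%, 14.6%, 13.2% and 17.8% rose. The counts at 4 h of TNF-alpha cross the division of the libraries. Chst3, which adds sulfate at position 6 of the chain, fell after 72 h of IL-1beta by 2.96 ± 0.153, Xylt1, which starts the chain, by 2.09 ± 0.128, and Slc26a2, the sulfate transporter, by 1.99 ± 0.120 (edgeR adjusted p = 7.87e-16 or less). With TNF-alpha Slc26a2 fell by 1.20 ± 0.117, Papss1, which makes the sulfate donor, by 0.72 ± 0.060, and Slc35b2, which carries it into the Golgi, by 0.71 ± 0.071 (edgeR adjusted p = 5.22e-10 or less).

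After 72 h, proteases that cut lecticans moved up more often than down. Of 14 tested, 8 rose and 3 fell after 72 h of IL-1beta, with a median of 1.09, and 7 rose and 4 fell after 72 h of TNF-alpha, with a median of 0.70. Of all genes, 19.3% rose and 19.7% fell with IL-1beta and 17.8% rose and 18.3% fell with TNF-alpha, so the 3 that fell with IL-1beta are near the share over all genes, and without control 72 h replicate a only 1 fell. Mmp3, a stromelysin, rose by 6.12 ± 0.156 with IL-1beta and by 5.71 ± 0.153 with TNF-alpha, and Mmp13, a collagenase of cartilage, by 4.92 ± 0.160 with IL-1beta and by 2.45 ± 0.143 with TNF-alpha (edgeR adjusted p = 6.29e-16 or less). Mmp2 rose by 1.45 ± 0.097 with IL-1beta, and Htra1 fell by 1.15 ± 0.091 with TNF-alpha. The aggrecanase genes Adamts4 and Adamts5 rose by 2.07 and 2.30 after 72 h of IL-1beta and by 0.81 and 1.92 after 72 h of TNF-alpha. Both were already up after 4 h, by 1.60 and 1.89 with IL-1beta and by 1.73 and 1.43 with TNF-alpha, when Acan was not called. TNF-alpha and control at 4 h lie on opposite sides of the division of the libraries, so there TNF-alpha and the division cannot be told apart. Among the 4 inhibitors of these proteases, Timp3 fell by 2.74 ± 0.142 after 72 h of IL-1beta and Timp1 rose by 2.39 ± 0.161, while with TNF-alpha Timp1 rose by 1.38 ± 0.156 and Timp3 was not called (0.12).

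Genes of hyaluronan synthesis, turnover and binding were mixed. Of 18 tested, 9 rose and 2 fell after 4 h of IL-1beta, and 3 rose and 7 fell after 72 h. After 72 h of TNF-alpha 4 rose and 2 fell. Over all genes 15.5% rose and 17.2% fell after 4 h of IL-1beta, 19.3% rose and 19.7% fell after 72 h, and 17.8% rose and 18.3% fell after 72 h of TNF-alpha, so the rises at 72 h are near the share over all genes. The hyaluronan receptor Cd44 rose after 72 h by 1.73 ± 0.084 with IL-1beta and by 1.58 ± 0.083 with TNF-alpha. Stab1, a scavenger receptor, rose by 1.97 ± 0.163 with IL-1beta and by 2.80 ± 0.157 with TNF-alpha, and Layn, a hyaluronan receptor, by 0.83 ± 0.054 with TNF-alpha. The synthase Has2 rose after 4 h of IL-1beta by 0.67 and fell after 72 h by 0.53 ± 0.078. Of the ligands that bind the lectin domain of lecticans, Fbln1 rose after 72 h of IL-1beta by 2.23 ± 0.175 and fell after 72 h of TNF-alpha by 0.64 ± 0.188 (not called without control 72 h a, -0.43), Fbln2 rose by 0.82 ± 0.098 with IL-1beta and by 1.4 ± 0.099 with TNF-alpha, and Tnc fell with TNF-alpha by 1.33 ± 0.136.

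Of 8 chondrogenic regulators 6 fell and 2 rose after 72 h of either cytokine, with medians of -0.47 with IL-1beta and -0.75 with TNF-alpha, while 19.7% of all genes fell and 19.3% rose with IL-1beta and 18.3% fell and 17.8% rose with TNF-alpha. The 2 that rose are near the share over all genes. Sox9, the transcription factor that turns on Acan and Hapln1 in cartilage, fell by 1.48 ± 0.102 with IL-1beta and by 1.27 ± 0.10 with TNF-alpha after 72 h. After 12 h, when Acan was not called, Sox9 had fallen by 0.70 with IL-1beta and by 0.73 with TNF-alpha. Wwp2 fell by 0.92 ± 0.089 and Arid5b rose by 1.02 ± 0.090 with IL-1beta, and Sox6 and Trps1 fell by 0.84 ± 0.060 and 0.69 ± 0.060 with TNF-alpha. Col2a1, the main cartilage collagen gene, fell by 2.54 after 72 h of IL-1beta and by 1.35 after 72 h of TNF-alpha. The summed level of the 13 chondrocyte markers was 17610 to 19110 CPM after 72 h of IL-1beta, 37760 to 46100 CPM after 72 h of TNF-alpha and 83000 to 110000 CPM in control, and that of the 8 fibroblast markers was 26100 to 27600 CPM after 72 h of IL-1beta, 10340 to 10810 CPM after 72 h of TNF-alpha and 20610 to 25530 CPM in control. The 5 adipocyte markers summed to 682 to 711 CPM after 72 h of IL-1beta, 220.4 to 320.2 CPM after 72 h of TNF-alpha and 288 to 393 CPM in control. For the 6 leukocyte markers the sum was 30.9 to 37.5 CPM with IL-1beta, 48.7 to 70.0 CPM with TNF-alpha and 26.2 to 29.1 CPM in control, and for the 7 neural markers 43.5 to 49.3 CPM with IL-1beta, 54.8 to 72.2 CPM with TNF-alpha and 107.8 to 121.7 CPM in control. On average over the libraries, Col2a1, Fabp4, Cd68 and Map2 made up most of the chondrocyte, adipocyte, leukocyte and neural sums. These sums therefore do not show how the other markers of each set moved. The part of these lists in the changes of the 4 genes was not tested.

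**Figure D5:**
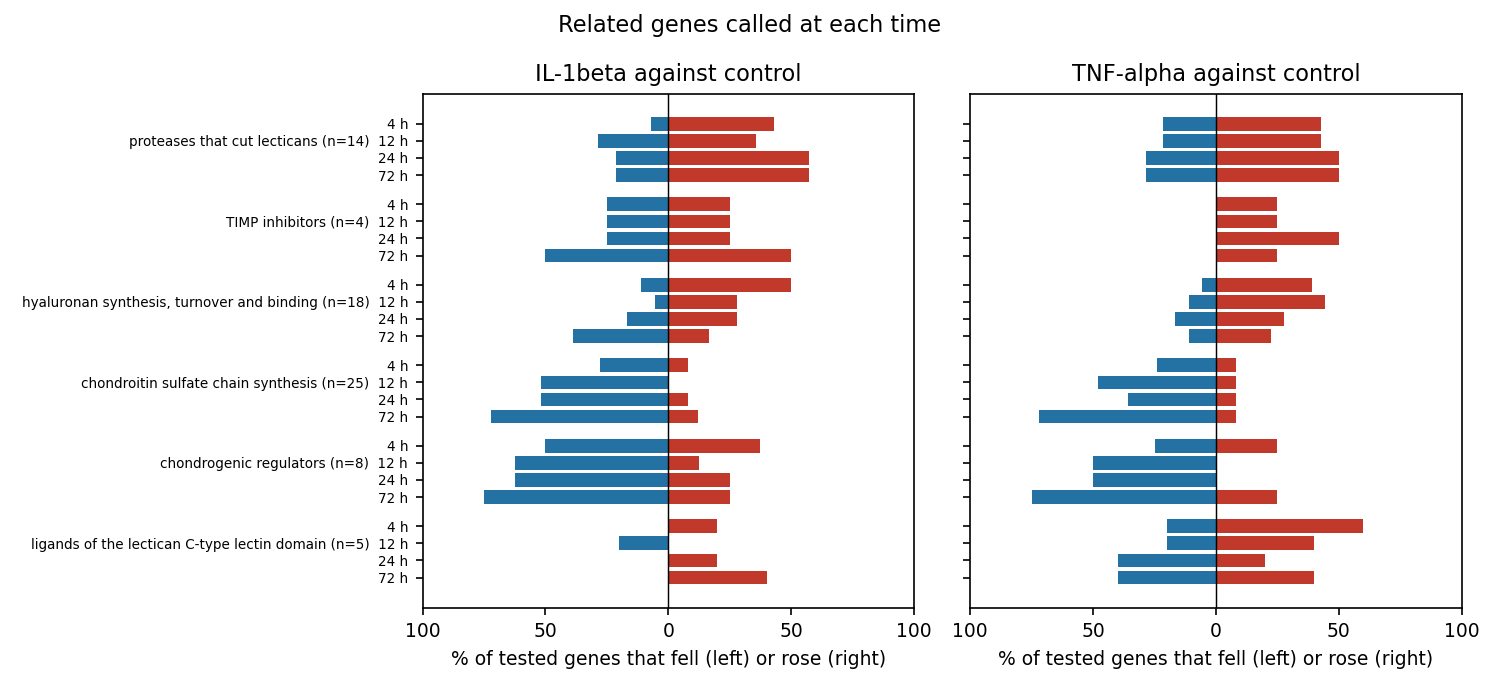
Percentage of the tested genes of each list (n beside its name) that rose (red, right) or fell (blue, left) at an adjusted p under 0.05 after 4, 12, 24 and 72 h of IL-1beta (left panel) and TNF-alpha (right panel) against control. In chondroitin sulfate chain synthesis 18 of 25 genes had fallen after 72 h of either cytokine, and among the proteases 8 and 7 of 14 had risen.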

How the data were processed

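Total RNA was isolated with a Norgen kit and mRNA libraries were made with a Ribo-Zero Gold kit, per the labels' protocols. Tools in the submitters' processing notes are cutadapt and Trimmomatic, STAR, and featureCounts, on mm10. The sources used here give neither versions, nor the annotation, nor the strand setting. The authors deposited raw counts per gene for 39 mRNA samples. The 2199 nameless lines were left out. So was the misaligned column of control 0 h replicate b, with 220180 counts on named genes and a correlation of 0.189 or less with the other libraries.

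In R 4.3.3, edgeR 4.0.16 (with limma 3.58.1, and tables read through version 1.17.8 of data.table) tested the counts by its quasi-likelihood F test, TMM scaling (factors 0.864 to 1.12) and filterByExpr, with 1 coefficient per group over 38 libraries. The filter kept 18857 genes with 99.905% of the counts, over which p-values were adjusted by Benjamini-Hochberg, and the common coefficient of biological variation came to 8.26%. The code was tested on simulated counts. No 2 libraries of a group were copies (lowest chi-square per degree of freedom 3.39). Alternatives were DESeq2 1.42.0, its median-of-ratios factors, library totals alone, no filter, a replicate block, only the libraries compared, TNF-alpha at 4 h against the 12 h controls, and each library left out in turn. The members and lists were chosen with earlier results of these data known. Named were the members, the other family genes, neighbours, the 3 called genes of smallest p at 72 h in each list, the 3 genes of highest correlation (1 of those for Hapln1 is not reported here), Col2a1 and Sox9; Adamts4, Adamts5 and values at other times were added after they were seen. Promoters, gene spans and motif shares come from RefSeq GRCm38.p6, in which 35095 of the 52459 names were found, all 4 members among them. Figures were drawn with matplotlib 3.10.9 and pandas 2.3.3 (Python 3.11.15, NumPy 2.4.6).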

Additional observations from a re-analysis of the deposited data

Results flagged for a closer look

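The effect of a cytokine differed between times for all 4 genes, which is the only kind of result that stood out. By edgeR's interaction test over the 4 times, the adjusted p with IL-1beta was 2.01e-15 for Acan, 2.82e-15 for Vcan, 2.59e-10 for Hapln1 and 0.000161 for Hapln3. With TNF-alpha it was 2.69e-07 for Acan, 0.0199 for Vcan, 3.78e-07 for Hapln1 and 0.000119 for Hapln3.

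Set between 72 and 12 h, the effect of IL-1beta on the log2 scale changed by -2.98 ± 0.193 for Acan (-3.05 at 72 h and -0.07 at 12 h), by -1.42 ± 0.157 for Hapln1, by -0.64 ± 0.240 for Hapln3 and by 2.61 ± 0.145 for Vcan (1.57 at 72 h and -1.03 at 12 h). The edgeR adjusted p was 2.13e-14, 5.92e-09, 0.042 and 4.5e-16, while 28.2% of all genes tested were called. Hapln3 lost this call without any 1 of 7 of the 12 libraries: control 12 h b (-0.55) or c (-0.67), IL-1beta 12 h a (-0.56), control 72 h b (-0.57) or c (-0.66), and IL-1beta 72 h a (-0.63) or c (-0.59).

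The effect of TNF-alpha changed between the same times by -1.24 ± 0.189 for Acan, by -1.16 ± 0.157 for Hapln1, by -0.97 ± 0.218 for Hapln3 and by 0.53 ± 0.142 for Vcan. The edgeR adjusted p was 2.46e-05, 3.64e-06, 0.00299 and 0.0138, while 8.54% of all genes tested were called. The Vcan call was lost without control 12 h a (0.43) or b (0.47), TNF-alpha 12 h b (0.42) or control 72 h c (0.39).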

How the results depend on the processing

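No call of the 4 genes changed direction under any alternative. With median-of-ratios factors the calls on Vcan at 24 h of IL-1beta (-0.25) and Hapln1 at 24 h of TNF-alpha (-0.29) were lost, and Vcan between the cytokines at 4 h (0.30) was gained, as it was with DESeq2 (0.30). With library totals alone, Vcan (-0.30) and Hapln1 (-0.34) at 4 h of IL-1beta and Acan (-0.37) and Hapln1 (-0.35) between the cytokines at 4 h were gained, and Vcan at 24 h of IL-1beta (-0.27) was lost. With no filter, gained calls were Vcan (-0.22) and Hapln1 (-0.27) at 4 h of IL-1beta, Acan at 4 h (0.26) and Vcan at 72 h (-0.23) of TNF-alpha, Acan (-0.28), Vcan (0.31) and Hapln1 (-0.27) between the cytokines at 4 h, Vcan between them at 12 h (-0.30) and Vcan in control between 4 and 0 h (0.33); Hapln3 lost its calls at 4 h of TNF-alpha (0.39), between the cytokines at 72 h (-0.44) and between 72 and 12 h of IL-1beta (-0.62). The replicate letters did not pair the libraries (46 same-letter correlations of -0.106 to 0.096, none over 0.1), and with the replicate block Hapln1 at 24 h of TNF-alpha (-0.29) and Hapln3 between 72 and 12 h of IL-1beta (-0.64) lost their calls. Fits on only the libraries compared gained Acan at 4 h of TNF-alpha (0.33) and lost Hapln1 between the cytokines at 12 h (-0.39), with 1549 and 908 genes called between the cytokines at 4 and 12 h in place of 2332 and 1995. Against the 12 h controls, a comparison of unlike times, Acan (0.42) and Hapln1 (0.44) at 4 h of TNF-alpha were gained. Over 12, 24 and 72 h only, the Hapln3 interaction with IL-1beta was lost (adjusted p = 0.0891) and 1460 genes passed for TNF-alpha in place of 3618. The cause of these changes was not tested.

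With each library left out in turn, the results whose call changed ranged as follows on the log2 scale: Hapln1 in control between 72 and 12 h, 0.29 to 0.44; Vcan at 24 h of IL-1beta, -0.33 to -0.20; Hapln1 at 4 h of IL-1beta, -0.34 to -0.14; Hapln3 at 4 h of TNF-alpha, 0.33 to 0.51; Acan and Hapln1 at 24 h of TNF-alpha, -0.35 to 0.0174 and -0.38 to -0.21; Vcan at 72 h of TNF-alpha, -0.36 to -0.17. Between the cytokines they were 0.22 to 0.36 for Vcan, -0.38 to -0.18 for Hapln1 and -0.69 to -0.51 for Hapln3 at 4 h, -0.35 to -0.18 for Vcan and -0.52 to -0.35 for Hapln1 at 12 h, and -0.51 to -0.39 for Hapln3 at 72 h. Between 72 and 12 h, they were -0.80 to -0.55 for the IL-1beta effect on Hapln3 and 0.39 to 0.60 for the TNF-alpha effect on Vcan, whose interaction had an adjusted p of 0.0108 to 0.11. Genes called in control between 4 and 0 h numbered 1530 to 3160 (3839 with all libraries), and between the cytokines at 4 h 1431 to 2078 (2332). Library totals alone moved the median log2 fold change of all genes by about 0.1: to -0.13 at 4 h of IL-1beta (-0.03 with TMM), 0.10 at 72 h of TNF-alpha (-0.01), -0.11 at 72 h between the cytokines (-0.01) and 0.14 in control between 24 and 12 h (0.01). Totals of called genes in the related lists at 72 h stayed within 1.5 times under all alternatives, except those of the other lecticans and link proteins with IL-1beta and the inhibitors and lectin ligands with TNF-alpha, which have 1 to 4 calls. By direction, the proteases that fell with IL-1beta numbered 1 to 3 and the chondroitin sulfate genes that rose with TNF-alpha 1 to 3. Hapln3 had 50 to 360 counts in a library, and each of the others at least 5875. Whether depth limited the Hapln3 results was not tested.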
